A study of Mus musculus with 28 samples.

Results

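Mouse splenic CD8 T cells kept for 1 day with vorinostat at 10 µM were compared with CD8 T cells kept without drug. The comparison rests on 4 of the 28 arrays of the series, 2 for each group, chosen by cell type, treatment and dose in the labels and paired by their replicate number. Each of 18193 genes on the array was represented by its brightest probe set, and the 9870 genes over the detection level in at least 2 of the 28 arrays were tested. The series as a whole holds 14 groups of 2 arrays, from CD4 and CD8 T cells with 3 doses of vorinostat, 3 doses of romidepsin or no drug. All of the cells came from spleen by negative selection, with no mouse strain or age in the labels. They had been stimulated for 2 days through CD3 (plate-bound antibody) and CD28 (soluble antibody at 5 µg/ml) before the drug day. The anti-CD3 dose of 3 µg/ml is recorded as that of treated cells. Control cells are labelled as stimulated for the same 2 days, but an equal anti-CD3 dose is not shown for them. The labels name no vehicle for the controls. The other groups used here are CD8 T cells with vorinostat at 0.5 or 2 µM or with romidepsin at 30 nM, and CD4 T cells with vorinostat at 10 µM or without drug, again with 2 arrays each.

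Vorinostat is a hydroxamate that inhibits histone deacetylases, zinc-dependent enzymes that take acetyl groups off histones and many other proteins. Acetylated histone tails loosen chromatin and recruit bromodomain proteins, and inhibitors of the deacetylases are known both to raise silent genes and to lower highly transcribed, lineage-defining ones. An activated CD8 T cell is a dividing cytotoxic cell that signals through the T cell receptor with the CD8 coreceptor, through costimulatory receptors and through cytokine receptors, and that restrains itself with inhibitory receptors.

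Levels are log2 values, n is 2 for every group mean, and ± gives a difference's standard error from the fit. The detection level was 4.27, which is the mode of all values (2.27) plus 2, and a gene is called changed at a Benjamini-Hochberg adjusted p under 0.05 over the 9870 genes in limma with the replicate number as a block. The labels do not say which animals each replicate came from or how many, so p-values measure only the spread between these samples. Replicate 1 arrays had a signal of the Y-linked Eif2s3y and replicate 2 arrays of Xist, each without the other. In CD8 control replicates 1 and 2 Eif2s3y was at 11.38 and 2.25, and Xist at 2.27 and 12.61. The replicates thus differ in sex and did not come from 1 animal, and sex cannot be told apart from replicate number. Between 8480 and 9212 genes lay over the detection level in the 4 arrays. The difference between the 3′ and 5′ probe sets of beta-actin, which grows as RNA shortens, was 1.43 and 1.16 with the drug in replicates 1 and 2 against 0.86 and 0.79 in the controls, and the same difference for Gapdh was 0.26 and 0.13 against 0.20 and 0.08. With the actin difference as a covariate 3862 genes were called, of which 3317 were among those called without it. At 0.5 and 2 µM the actin difference was 0.98 and 1.16 in replicate 1, and 0.88 and 0.96 in replicate 2. It thus rose with the vorinostat dose in both CD8 replicates, so RNA shortening and the drug cannot be told apart in that fit.

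The drug changed 6318 of the 9870 genes (64.0%), of which 3120 were higher (31.6%) and 3198 lower (32.4%). Changes over 1 log2 unit were called in 2830 genes (28.7%), with 1354 higher (13.7%) and 1476 lower (15.0%), and changes over 3 log2 units in 273 (2.77%), with 130 higher (1.32%) and 143 lower (1.45%). In 4525 genes (45.8%) the call came with drug arrays that lay wholly above or wholly below the control arrays. The median change over all genes tested was 0.0. Without the block 2029 genes were called (20.6%), 1190 higher (12.1%) and 839 lower (8.50%), and all of the 2029 were among the 6318. Changes in the replicates had a Pearson correlation of 0.885 across genes, which are not independent, and their standard deviation was 1.279 in replicate 1 and 1.107 in replicate 2. Each of the 12 largest falls between detected levels was larger in replicate 1 than in replicate 2.

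**Figure D1:**
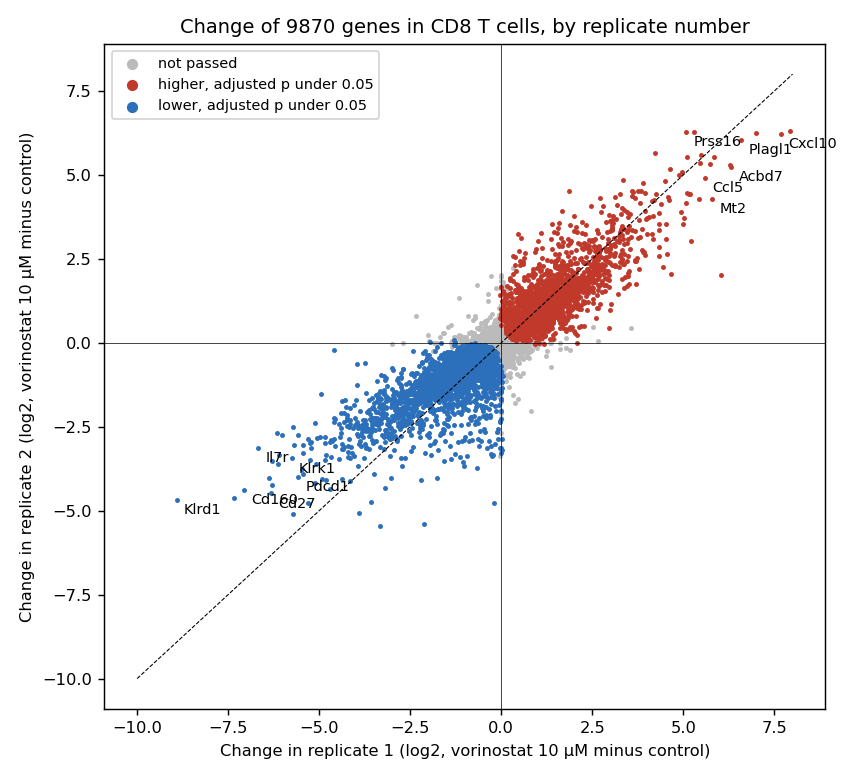
Change of each of the 9870 genes tested with vorinostat at 10 µM in CD8 T cells (log2), in replicate 1 on the x axis and replicate 2 on the y axis, with genes called higher in red, called lower in blue and others in grey, and a dashed line of equal change. Cxcl10 lies furthest along the line among the labelled rises, and Klrd1 lies to the left of the other labelled falls, far above the dashed line, with a larger fall in replicate 1.

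The label of the cells was checked first. Cd8a, a chain of the CD8 coreceptor, was at 11.08 and 11.59 in control replicates 1 and 2 and at 9.34 and 10.36 with the drug, a change of -1.49 ± 0.28 (adjusted p = 0.000333, limma). Cd8b1, the other chain, went from 11.93 and 12.18 to 9.94 and 11.10. All of the 4 arrays thus held both chains far over the detection level, while Cd4 was at most at 2.34. Without the block Cd8a (adjusted p = 0.0723) and Cd8b1 (adjusted p = 0.0650) were not called by limma. The arrays measured bulk RNA, in which fewer cells of a type and less RNA per cell cannot be told apart. Of 10 B cell markers on the array 5 were over the detection level in at least 1 of the 4 arrays, and their summed level was 9.38 and 10.80 in the controls against 6.25 and 7.36 with the drug. Cd79a and Pax5 lay at most at 2.49, but Ighm, the heavy chain of IgM, went from 9.02 and 10.21 to 3.71 and 5.46, and Cd79b from 6.77 and 8.81 to 3.15 and 5.65. Of 5 CD4 T cell markers 2 were detected, and their summed level was 5.23 and 6.34 against 5.30 and 5.38. The summed levels of 14 myeloid markers (6.89 and 8.27 against 7.94 and 8.23), 7 NK cell markers (5.57 and 7.40 against 5.34 and 5.95) and 6 erythroid and platelet markers (4.87 and 4.97 against 4.87 and 4.88) rested on at most 3 detected genes each. Lyz2, Cd14, Ncr1 and Hba-a1 were at the floor in each of the 4 arrays. The part of the B cell signal in the falls below was not tested.

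The 12 largest rises between detected levels ranged from 6.95 to 4.20. Cxcl10, a chemokine that attracts CXCR3-bearing T cells, was at 4.83 and 4.84 in the controls and at 12.51 and 11.06 with the drug. Its change was 6.95 ± 0.55, or 124-fold (adjusted p = 2.20e-07, limma). Plagl1, an imprinted zinc finger factor that restrains proliferation, went from 5.62 and 5.28 to 12.21 and 11.32, a rise of 79.6-fold. Ccl5, a chemokine of activated CD8 T cells, went from 8.73 and 8.92 to 14.34 and 13.83. In each of these genes the drug arrays lay more than 4 log2 units above the controls in both replicates. The metallothioneins Mt2 and Mt1, which bind zinc and other metals, rose by 5.04 ± 0.34 and 4.62 ± 0.26. Iigp1 and Gbp2b, interferon-induced GTPases, rose by 4.80 and 4.41, and Hspa1b, an inducible heat shock protein of the HSP70 family, by 4.32. The rest of the 12 largest rises were Mpzl1 (5.79), a cell-surface glycoprotein, Acbd7 (5.78), an acyl-CoA binding protein, Eaf2 (4.86), a factor of transcription elongation, and Lrp11 (4.20).

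From a control mean under the detection level only a lower bound of the fold can be given. Npl, a lyase of sialic acid breakdown, rose at least 46.3-fold, from 4.13 and 4.10 to 9.98 and 9.63. Abhd3 rose at least 24.9-fold, Dsp, which encodes the desmosome protein desmoplakin, at least 21.4-fold, Tmcc3 at least 20.0-fold, and Prss16, a serine protease known from the thymic cortex, at least 18.4-fold. Selenom, Dzank1 and Dmxl2 rose at least 16.5-fold, 16.3-fold and 16.0-fold.

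The 12 largest falls between detected levels ranged from -6.79 to -4.68, and B cell genes were among them. Klrd1, the CD94 chain that pairs with NKG2 receptors, was at 12.61 and 13.25 in the controls and at 3.70 and 8.58 with the drug. Its change was -6.79 ± 0.94 (adjusted p = 1.92e-05, limma), with a fall to under the detection level in replicate 1 alone. Cd160, an inhibitory and costimulatory receptor, went from 9.53 and 11.12 to 2.45 and 6.73, and Cd27, a costimulatory receptor, from 9.78 and 10.39 to 3.44 and 5.91. Pdcd1, which encodes the inhibitory receptor PD-1, was at 11.34 and 11.36 in the controls and at 5.76 and 7.38 with the drug, a fall of 27.5-fold. Il7r, the receptor chain for the survival cytokine IL-7, went from 10.10 and 10.42 to 3.43 and 7.29. Drug arrays wholly under the control arrays were a condition for a place among these falls. In replicate 1 the drug values of Cd160, Cd27, Il7r and Ighm were also under the detection level. The fitted sizes of such falls thus rest in part on undetected values. Sla, an adaptor that dampens receptor signalling, changed by -5.27, Lcp2, the adaptor SLP-76, by -4.73, and Cd96 by -4.68. Pou2af1, a B cell coactivator, changed by -5.20 and Ighm by -5.04, and the list was completed by Tspan32 (-4.92) and Lpxn (-4.87). Without the block Cd160 (adjusted p = 0.0613), Pou2af1 (adjusted p = 0.117) and Ighm (adjusted p = 0.0502) were no longer called by limma.

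To a drug mean under the detection level, Klrc1, which encodes the inhibitory receptor NKG2A, fell at least 26.8-fold, from 9.62 and 8.403 to 2.28 and 3.77. Lxn, a carboxypeptidase inhibitor, fell at least 22.7-fold and Pik3ip1, a negative regulator of PI3 kinase, at least 14.8-fold. Slc17a6 (13.3-fold), Rcbtb2 (11.9-fold, adjusted p = 0.138 without the block, limma), the prostaglandin E2 receptor Ptger2 (9.99-fold), Plpp5 (8.85-fold) and Tnfrsf13b (8.63-fold) fell by at least the folds given.

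**Figure D2:**
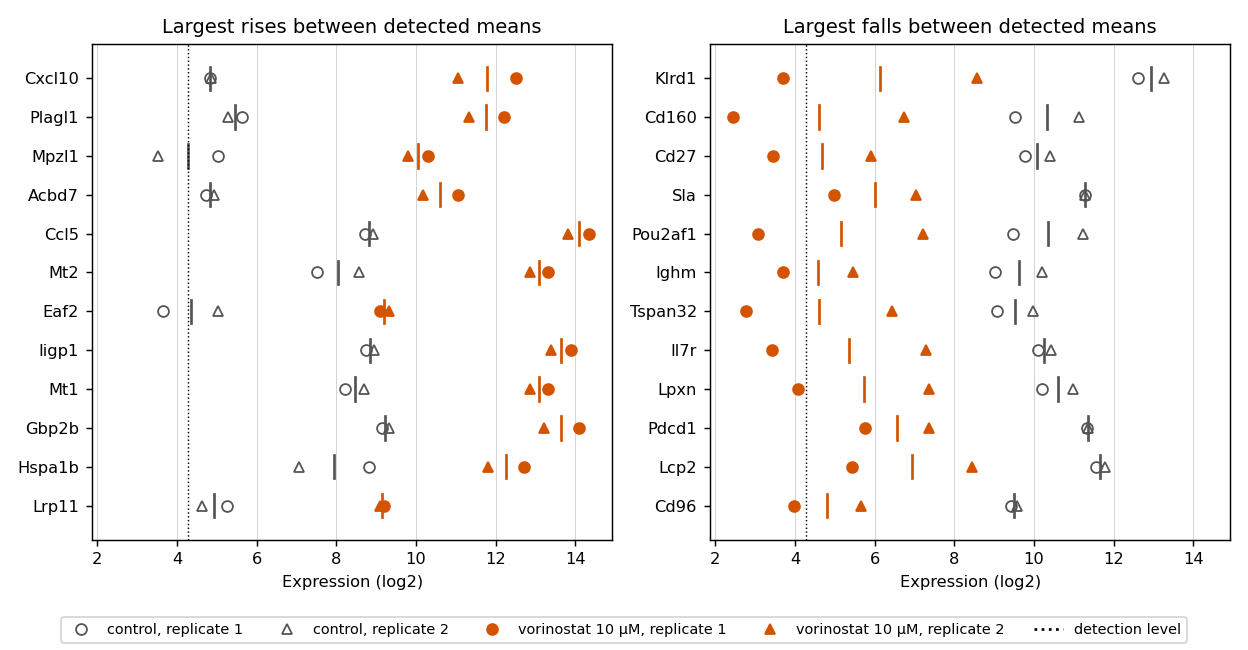
Expression (log2) of the 12 largest rises and the 12 largest falls between detected group means, with control arrays as open grey and vorinostat arrays as filled orange symbols, circles for replicate 1, triangles for replicate 2, vertical bars for group means and a dotted line at the detection level of 4.27. The 24 genes were chosen among those whose groups do not overlap. In each of the 12 falls the drug array of replicate 1 lies to the left of that of replicate 2.

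Promoter sequences of a few of the genes with large changes are shown because they differ in the motifs and the CpG content that their windows hold. Each is the 250 bases before the gene's start as annotated by RefSeq on GRCm38.p6, written 5′ to 3′ on the gene's strand, at chr8:94178839-94179088 (+) for Mt1, chr8:94172368-94172617 (+) for Mt2, chr5:92348890-92349139 (-) for Cxcl10, chr3:142620413-142620662 (+) for Gbp2 and chr3:142594597-142594846 (+) for Gbp2b. Capitals mark the metal response core TGCACNC or TGCGCNC in the metallothioneins and the interferon element (GAAA, any 2 bases, then GAAA) in the others, on either strand.
Mt1: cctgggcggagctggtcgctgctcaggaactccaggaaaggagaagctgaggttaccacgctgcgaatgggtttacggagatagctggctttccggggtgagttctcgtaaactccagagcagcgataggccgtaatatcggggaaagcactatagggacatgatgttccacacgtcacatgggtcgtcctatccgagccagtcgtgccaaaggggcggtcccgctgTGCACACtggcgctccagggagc
Mt2: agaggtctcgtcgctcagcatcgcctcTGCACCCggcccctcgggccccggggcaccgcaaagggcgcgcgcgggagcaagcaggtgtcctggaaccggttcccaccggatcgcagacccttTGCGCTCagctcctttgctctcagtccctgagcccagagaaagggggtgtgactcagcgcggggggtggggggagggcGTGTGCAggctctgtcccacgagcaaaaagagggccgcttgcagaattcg
Cxcl10: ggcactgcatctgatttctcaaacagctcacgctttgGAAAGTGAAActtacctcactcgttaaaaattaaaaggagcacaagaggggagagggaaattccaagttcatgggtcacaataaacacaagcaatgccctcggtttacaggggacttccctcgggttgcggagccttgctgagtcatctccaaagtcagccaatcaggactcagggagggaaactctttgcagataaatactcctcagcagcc
Gbp2: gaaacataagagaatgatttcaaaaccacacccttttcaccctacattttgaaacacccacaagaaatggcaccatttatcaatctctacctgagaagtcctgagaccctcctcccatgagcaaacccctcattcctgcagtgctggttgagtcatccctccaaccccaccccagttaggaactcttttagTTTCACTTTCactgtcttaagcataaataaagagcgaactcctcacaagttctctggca
Gbp2b: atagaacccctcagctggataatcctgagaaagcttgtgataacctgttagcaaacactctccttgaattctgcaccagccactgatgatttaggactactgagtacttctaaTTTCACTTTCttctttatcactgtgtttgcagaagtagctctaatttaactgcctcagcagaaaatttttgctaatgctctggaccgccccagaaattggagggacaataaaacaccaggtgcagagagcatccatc

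The Mt1 window holds 1 metal response core and the Mt2 window 3, against at least 1 in 30.9% of the 8107 tested genes with a window of this length. The interferon element occurs once in each of the Cxcl10, Gbp2 and Gbp2b windows and once each in those of Igtp and Irgm2, against 2.5% of tested genes. Among genes that rose or fell over 1 log2 unit, it was in 3.1% and 3.3% of windows. For changes over 3 log2 units the shares were 5.1% and 1.8%. The metal response core was in 31.1% and 28.5% for changes over 1 log2 unit, and in 32.3% and 15.6% over 3. All of these are matches of letters and not measured binding sites. The windows of the genes that fell over 1 log2 unit held a median of 13 CpG dinucleotides (with a window for 80.6% of the set), those that rose over 1 log2 unit 17 (81.7%), and all genes tested 17. The GC box GGGCGG was in 52.6% of the windows of the falls, 70.0% of those of the rises and 61.9% of all. For changes over 3 log2 units the median was 4 CpG dinucleotides in the falls and 16 in the rises. The GC box was in 27.5% and 68.7% of those windows, with a window for 76.2% of each set. Plagl1, at chr10:13090582-13090831 (+), and Pdcd1, at chr1:94052554-94052803 (-), are shown as a strong rise with 19 CpG dinucleotides in its window and a strong fall with 3, in capitals below.
Plagl1: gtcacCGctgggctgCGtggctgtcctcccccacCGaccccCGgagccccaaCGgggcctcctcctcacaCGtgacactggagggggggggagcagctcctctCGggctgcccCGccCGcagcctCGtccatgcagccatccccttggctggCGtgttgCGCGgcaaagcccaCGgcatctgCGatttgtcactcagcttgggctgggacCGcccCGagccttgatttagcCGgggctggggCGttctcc
Pdcd1: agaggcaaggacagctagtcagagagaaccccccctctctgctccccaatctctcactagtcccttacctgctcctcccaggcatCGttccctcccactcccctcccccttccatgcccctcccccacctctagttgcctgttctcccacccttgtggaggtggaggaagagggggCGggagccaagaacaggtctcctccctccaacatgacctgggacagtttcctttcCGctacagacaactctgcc

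The genes of the histone deacetylase family come first. Of 10 tested histone deacetylase genes 4 rose (40.0%, against 31.6% of all genes) and 2 fell (20.0%, against 32.4%), with a median change of 0.11. Hdac7, a class IIa enzyme abundant in T cells, went from 8.25 and 9.23 to 3.41 and 6.41, a change of -3.83 ± 0.51. Hdac6, which acts on tubulin, rose from 5.84 and 6.82 to 8.74 and 8.72, by 2.40 ± 0.34, and Hdac1, a class I enzyme, by 0.79. Hdac2 changed by 0.08 and was not called. Of 14 acetyltransferases and BET readers 2 rose (14.3%) and 6 fell (42.9%), with Kat2b at -3.10 and Crebbp at -1.35. The linker histone H1f2, which packs nucleosomes, rose from 6.28 and 6.41 to 10.61 and 10.26. Of 22 Polycomb and DNA methylation genes 7 fell (31.8%), a share near that of all genes, and 3 rose (13.6%), with Dnmt3a, a de novo DNA methyltransferase, at -2.10.

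The genes of T cell receptor signalling were lower almost throughout. Of 27 tested members 24 fell (88.9%, against 32.4% of all genes), 1 rose and 2 were not called, and the median change was -2.59 (-2.751 and -1.996 in replicates 1 and 2) against 0.0 over all genes. It was -2.38 with group means under the detection level set to that level. Zap70, the kinase that binds the activated receptor, went from 10.03 and 11.12 to 4.96 and 8.28, and Cd247, the zeta chain, from 10.35 and 11.33 to 6.21 and 8.90. The receptor chains Cd3d, Cd3g and Cd3e changed by -1.72, -1.60 and -1.45. The adaptors Lcp2, Themis, Trat1 and Sh2d2a changed by -4.73, -3.90, -3.82 and -3.73, Grap2 fell at least 2.10-fold, and the kinase Csk changed by -1.83. Cd5, a negative regulator of the receptor, changed by -4.12. Fyn, a Src family kinase, was the member that rose (0.36), and Malt1 (0.29) and Bcl10 (-0.15) were not called. Without the block 15 members were called lower, against 8.50% of all genes. Zap70 (adjusted p = 0.0517), Cd3d (adjusted p = 0.0645) and Cd3g (adjusted p = 0.127) were among those lost in limma.

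Most of the tested costimulatory and inhibitory receptor genes fell. Of 15 tested costimulatory genes 12 fell (80.0%, against 32.4% of all genes) and none rose. Their median was -1.79, or -1.17 with undetected means at the detection level. Among the falls were the TNF receptor family members Tnfrsf18 (-3.27), Tnfrsf4 (-3.06) and Tnfrsf9 (-2.47). Cd28 changed by -0.51 and Icos by -0.47, and neither was called. Of 20 inhibitory receptor and exhaustion genes 12 fell (60.0%) and 2 rose (median -0.93, or -0.63 with undetected means at the detection level). Btla went from 8.50 and 8.85 to 3.69 and 5.51, and the factor Tox from 9.16 and 8.41 to 5.63 and 5.43. The rises were Tox2, a relative of Tox, from 4.01 and 3.41 to 7.37 and 8.26 (at least 11.7-fold), and Cd274, the PD-1 ligand PD-L1, from 7.86 and 7.12 to 9.86 and 10.45. Ctla4 (0.42) and Lag3 (-0.52) were not called. Without the block 5 costimulatory and 6 inhibitory members were called lower, against 8.50% of all genes.

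The genes of CD8 identity and of killing moved in part. Of 12 CD8 identity genes 7 fell (58.3%, against 32.4% of all genes) and 2 rose (16.7%, against 31.6%), with a median of -1.51. Nkg7, a granule membrane protein, went from 12.25 and 12.79 to 7.79 and 10.38. Klrk1, the activating receptor NKG2D, went from 8.87 and 11.28 to 3.12 and 7.84. Runx3, which maintains the CD8 lineage, changed by -0.39 and was not called. Of 16 cytotoxic granule genes 9 fell (56.2%) and 2 rose (median -0.84). Prf1, the pore-forming perforin, went from 11.20 and 10.08 to 8.44 and 9.02, a change of -1.91 ± 0.71 (adjusted p = 0.0278, limma; 0.102 without the block). Gzmb, the granule protease granzyme B, was at 14.83 and 14.41 in the controls and at 13.45 and 13.82 with the drug. The largest change of the list was in Unc13d, which primes granules for release (-3.23). Lamp2 (2.05) and Lamp1 (0.90), lysosomal membrane proteins, were its rises. Without the block 3 of 16 cytotoxic genes and 1 of 12 CD8 identity genes were called lower. The share for CD8 identity was thus near the 8.50% of all genes in that fit. There Nkg7 (adjusted p = 0.0930), Klrk1 (adjusted p = 0.0549) and Gzmb (adjusted p = 0.243) were not called by limma.

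Transcription factors of the lineage split. Of 24 tested 14 fell (58.3%, against 32.4% of all genes) and 6 rose (25.0%, against 31.6%), with a median of -1.50. The Ikaros family members Ikzf1, Ikzf3 and Ikzf2, zinc finger regulators of lymphocytes, changed by -3.33, -3.17 and -2.38, and Bcl11b, which holds the T cell fate, by -2.24. Eomes, a T-box factor of memory and effector CD8 cells, went from 10.09 and 11.51 to 7.92 and 9.41, while the related Tbx21 rose from 9.12 and 8.87 to 9.82 and 10.19; without the block neither was called (adjusted p = 0.0965 and 0.0626, limma). Prdm1, which encodes the effector factor Blimp-1, went from 3.02 and 3.21 to 5.51 and 6.27, a rise of at least 3.08-fold. Irf4 and Irf8, interferon regulatory factors, each rose by 1.91, Id2 by 1.04 and Maf at least 2.05-fold. In each of the 6 rises the drug arrays lay above both control arrays.

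Secreted mediators were called in part. Of 24 effector cytokine and chemokine genes 9 fell (37.5%, against 32.4% of all genes), 2 rose and 13 were not called. At least 1 group mean was under the detection level in 13 of the 24. Both means were under it for Il2, Il4, Il5, Il10, Il13, Il21, Il24, Csf1 and Ccl1, none of which was called. The shares thus describe a list that holds genes undetected in these cells. The list's median change was -0.50, -0.14 with undetected means at the detection level and 0.024 with the actin covariate. The rises were Ccl5 and Tnf, an inflammatory cytokine that went from 6.45 and 6.72 to 9.10 and 9.30. Ifng, the interferon of cytotoxic cells, was at 14.40 and 13.44 in the controls and at 12.33 and 12.94 with the drug, a change of -1.29 ± 0.39 (adjusted p = 0.00967, limma; 0.463 without the block). Xcl1, a chemokine for cross-presenting dendritic cells, changed by -2.62 and Ltb, a ligand in lymphoid organs, by -2.51. Among 33 genes of cytokine receptors and the JAK-STAT pathway, 19 fell (57.6%) and 7 rose (median -0.85). Among the falls were the receptor chains Il18rap and Il18r1, by at least 5.66-fold and 8.60-fold, and Il27ra (-2.87), and Il18r1 was not called without the block (adjusted p = 0.209, limma). Socs2 (1.92) and Socs3 (1.55), feedback inhibitors of cytokine signalling, were among the rises. Of 25 naive, memory and homing genes 17 fell and 3 rose (median -1.01), with the integrin chain Itgal at -3.33 and the early activation marker Cd69 at 1.62. Without the block 2 of 24 cytokine, 5 of 33 receptor and 6 of 25 homing genes were called lower. The cytokine share was thus near the 8.50% of all genes in that fit. Of 29 activation factors 8 rose and 8 fell (27.6% each, below the shares of all genes), with the AP-1 family genes Atf3 (3.47), Fos (2.63) and Jun (1.58) higher and the phosphatase Dusp4 (-1.70) lower.

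The interferon-induced GTPases were higher as a group while other interferon genes split. Of 9 tested GTPases listed for the IRG and GBP families, which attack pathogen vacuoles, 8 rose (88.9%, against 31.6% of all genes) and none fell. Gbp2b, named above among the largest rises, is not in this list. The median change of the 9 was 2.12 (2.38 and 1.86 in replicates 1 and 2). Gbp2 went from 10.06 and 10.35 to 14.19 and 13.60 and Irgm2 from 9.14 and 9.93 to 12.47 and 12.28, and Gbp3 (0.33) was not called. Without the block 8 members were again called higher, against 12.1% of all genes. Of 13 other interferon response genes 6 rose and 6 fell (46.2% each, median -0.22). Ifit1, which binds viral RNA, rose at least 5.38-fold, from 2.31 and 2.61 to 6.52 and 6.87, and Usp18, a brake on interferon signalling, by 2.33. Xaf1, a pro-apoptotic factor, went from 9.17 and 8.42 to 5.06 and 5.33. Of 15 genes of MHC class I presentation 7 fell (46.7%, against 32.4% of all genes) and 4 rose (26.7%, against 31.6%). The falls were led by the immunoproteasome subunit Psmb10 (-2.92), the peptidase Erap1 (-2.73) and H2-M3 (-2.45). H2-K1 and H2-D1, the classical class I chains, rose by 0.29 and 0.30, and neither was called without the block (adjusted p = 0.526 and 0.218, limma).

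Genes of division and growth were lower. Of 31 mitosis genes 28 fell (90.3%) and none rose, with a median change of -1.01. Cdk1, the mitotic kinase, went from 10.90 and 10.95 to 7.73 and 8.82, and Plk1, a kinase of spindle assembly, from 9.69 and 9.56 to 7.43 and 8.04. Of 36 genes of DNA replication and nucleotide supply 25 fell (69.4%, against 32.4% of all genes) and 5 rose (13.9%), with a median of -0.68. Tk1, thymidine kinase, changed by -2.95 and Rrm2, a subunit of ribonucleotide reductase, by -2.19. Pcna, the sliding clamp, changed by -0.56. Of 31 MYC and ribosome biogenesis genes 21 fell (67.7%) and 2 rose (6.45%), with a median of -0.79. Myc itself went from 10.42 and 11.56 to 7.88 and 10.06 (adjusted p = 4.87e-05, limma; 0.261 without the block), Nop56 changed by -2.09, and Mxd1, an antagonist of MYC, rose from 5.90 and 6.63 to 9.01 and 9.32. Without the block 7 mitosis, 6 replication and 14 MYC and ribosome genes were called lower, against 8.50% of all genes. Tk1 (adjusted p = 0.0976) and Pcna (adjusted p = 0.358) were not called there by limma.

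Inhibitors of the cell cycle diverged from one another. Cdkn1c, which encodes p57, went from 2.63 and 3.59 to 7.84 and 6.62, a rise of at least 7.80-fold. Cdkn2b, which encodes p15, rose at least 5.05-fold, from 2.38 and 2.77 to 6.91 and 6.31, and Cdkn2a, which encodes p16 and ARF, at least 1.72-fold, to 4.62 and 5.49. Cdkn1a, which encodes p21 and is widely reported to rise with deacetylase inhibitors, was at 9.99 and 9.90 in the controls and at 9.46 and 10.19 with the drug, a change of -0.12 ± 0.26 (adjusted p = 0.691, limma), and its groups overlapped. Cdkn1b, which encodes p27, changed by -1.18. Of the 24 genes of this list 6 rose (25.0%, against 31.6% of all genes) and 10 fell (41.7%, against 32.4%). Of 23 p53 targets and DNA damage genes 4 rose (17.4%) and 8 fell (34.8%, near the share of all genes), with the stress genes Gadd45a (3.44), Gadd45g (2.09) and Gadd45b (1.40) higher and the checkpoint kinase Chek1 at -1.80. Cdkn1b (adjusted p = 0.117) and Chek1 (adjusted p = 0.199) were not called without the block by limma.

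Of 21 pro-apoptotic genes 8 rose (38.1%) and 7 fell (33.3%), shares near the 31.6% and 32.4% of all genes, with a median change of 0.19. Bmf, a BH3-only protein, rose from 5.02 and 5.33 to 7.94 and 8.14, and Bcl2l11, which encodes BIM, by 0.96. Fasl, the death ligand, went from 8.69 and 9.44 to 5.28 and 8.31, and Casp8, the initiator caspase of death receptors, from 9.64 and 10.60 to 7.04 and 8.72. Of 13 anti-apoptotic genes 8 fell (61.5%) and 1 rose (median -0.60), the falls led by Birc3 (-2.06) and Cflar (-1.97), which restrain death receptor signalling. Mcl1 changed by -0.11 and was not called. Without the block Bcl2l11 (adjusted p = 0.306), Fasl (adjusted p = 0.334) and Casp8 (adjusted p = 0.113) were not called by limma, and with the actin covariate the change of Fasl was 0.079.

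Genes known from neurons were next. Of 23 tested neuronal genes 17 rose (73.9%, against 31.6% of all genes) and 2 fell, with a median change of 1.58, or 1.38 with undetected means at the detection level, and 15 others of the 38 listed did not pass the filter on low values. Bex2 went from 2.51 and 3.03 to 7.61 and 8.57, at least 14.1-fold, and Uchl1, a ubiquitin hydrolase of neurons, from 2.59 and 2.94 to 6.84 and 7.38, at least 7.16-fold. Kif5c, an axonal transport motor, rose at least 11.7-fold and Mapt, the microtubule protein tau, at least 2.62-fold. Nrn1, which encodes neuritin, was the largest fall of the list (11.79 and 10.32 to 8.99 and 8.36). Of 30 actin, membrane and tubulin genes 11 rose (36.7%) and 12 fell (40.0%). Fnbp1l, a regulator of branched actin, rose at least 14.8-fold, and Lmna, a nuclear lamin, at least 6.18-fold. Among the falls were the blood cell motors Myo1g (-2.85) and Myo1f (at least 2.24-fold), and Coro1a (-1.98), a coronin of lymphocytes. Myo1f (adjusted p = 0.0874) and Coro1a (adjusted p = 0.0534) were not called without the block by limma. A gene that passed the filter only through the drug arrays had to be higher there, so the counts of these lists describe the tested members alone.

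Of 28 lysosome and autophagy genes 21 rose and 3 fell (median 0.73, with 11 called higher without the block). Wipi1, a protein of early autophagosomes, rose at least 8.27-fold, Ctsl, a lysosomal protease, by 2.71 and Map1lc3a, which coats autophagosomes, by 2.41. Of 18 heat shock and metallothionein genes 10 rose (55.6%) and 5 fell (27.8%), with a median of 0.55. The rises included Hspa1a (at least 11.9-fold), Hspb1 (at least 1.76-fold) and Mt3 (2.03). The constitutive chaperones Hspa8 (0.18) and Hsp90aa1 (-0.17) were not called. Of 24 glutathione and redox genes 10 rose (41.7%) and 7 fell (29.2%, near the share of all genes). The transferases Gsta4 (3.81) and Mgst3 (2.91) and the thioredoxin inhibitor Txnip (2.68) were higher. Gsta4 was not called without the block (adjusted p = 0.0585, limma). Of 28 genes of ATF4 and the unfolded protein response 16 fell (57.1%) and 5 rose (17.9%), with a median of -0.62. The serine synthesis enzyme Phgdh changed by -1.77. Of 22 glycolysis genes 12 fell (54.5%) and 3 rose (13.6%), with a median of -0.51. The enolase Eno3 changed by -3.18 and the triose isomerase Tpi1 by -2.01. Of 24 genes of cholesterol and fatty acid synthesis 15 fell (62.5%) and 3 rose (12.5%), with a median of -0.66. The fatty acid synthase Fasn went from 9.96 and 10.08 to 5.95 and 7.64.

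**Figure D3:**
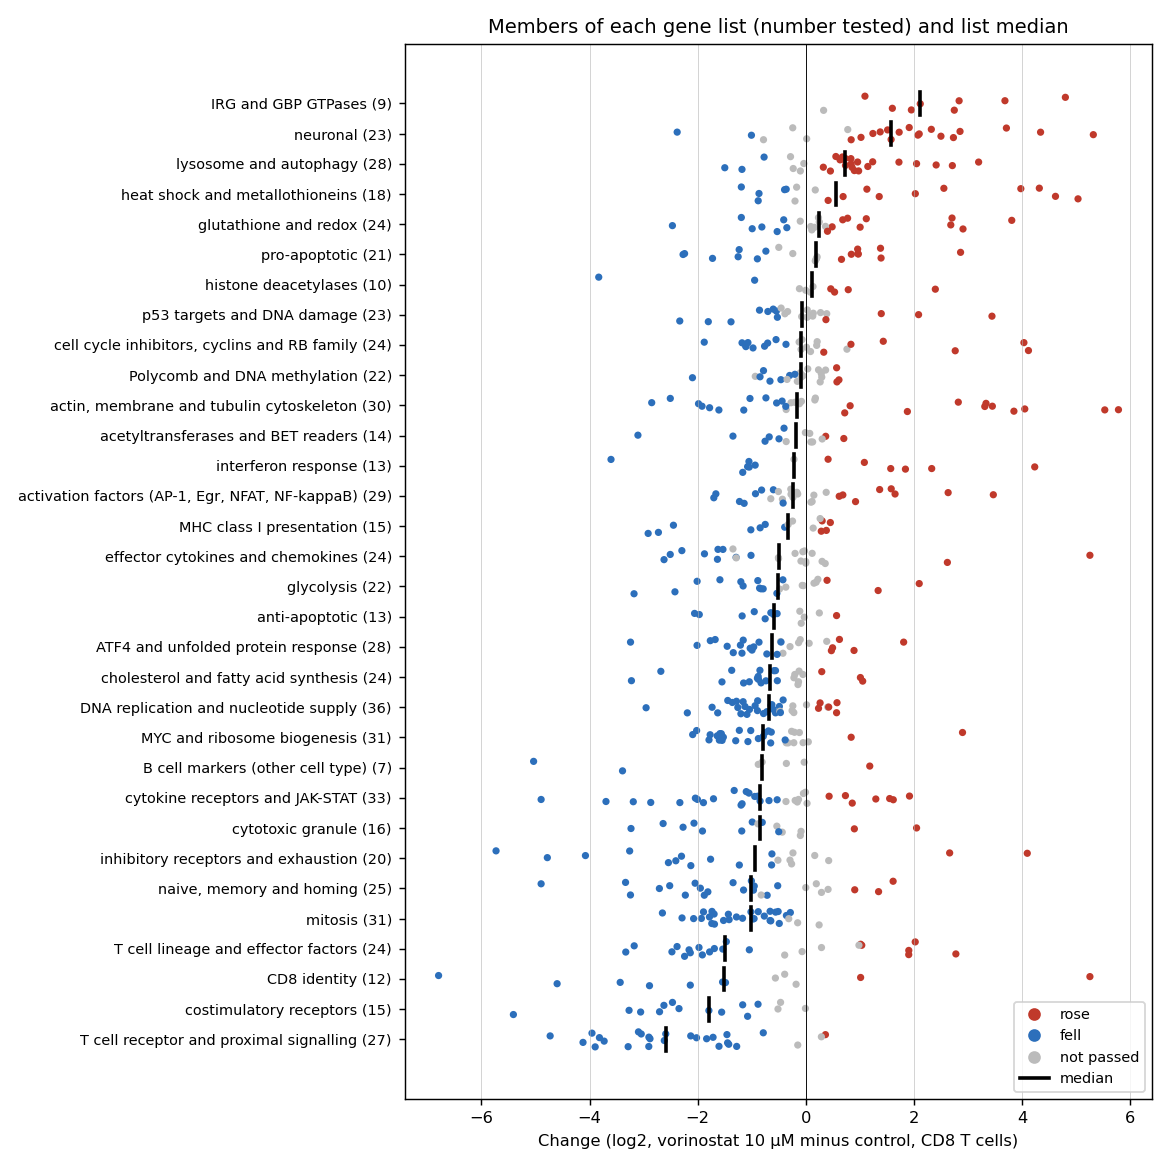
Change with vorinostat at 10 µM in CD8 T cells (log2, x axis) of each tested member of the gene lists with 7 or more tested members, with members called higher in red, called lower in blue and not called in grey, and a black bar at the list median. T cell receptor signalling lies lowest with a median of -2.59, and the IRG and GBP GTPases lie highest with 2.12.

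The lower doses place these changes in a series that shares its control arrays with the comparison above. At 0.5 µM 112 genes were called (1.13%), 69 of them higher (0.699%) and 43 lower (0.436%). This split depended on the setting. It was 103 higher and 40 lower after quantile normalization, but 65 and 97 with the mean of a gene's probe sets. With the actin covariate it was 215 and 250. At 2 µM 3637 were called (36.8%), with 1616 higher (16.4%) and 2021 lower (20.5%). Between 2 and 10 µM 4084 genes differed (41.4%), with 2245 higher at 10 µM (22.7%) and 1839 lower (18.6%). Without the block the count for the step was 482, the count at 2 µM was 326, and no gene was called at 0.5 µM by limma, where 201 had an unadjusted p under 0.05. Without control replicate 1, 7 genes were called at 0.5 µM and 1715 at 2 µM, and without the 10 µM array of replicate 1, 2634 differed between 2 and 10 µM.

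Some of the genes above changed mainly at the last step. Cxcl10 was at 5.35 and 5.12 at 0.5 µM and at 7.17 and 6.47 at 2 µM, before 12.51 and 11.06 at 10 µM, and the step from 2 µM was 4.97 ± 0.55 (adjusted p = 3.97e-05, limma). The other 7 of the 8 largest fitted rises at the step started from a mean under the detection level at 2 µM, so only bounds hold. Dzank1 rose at least 16.3-fold, Arhgap29 at least 9.87-fold, Reep6 at least 6.13-fold and Cdkn2b at least 5.05-fold. The chemokine Cxcl9, the cadherin Cdh1 and Ccdc158 rose at least 4.14-fold, 3.66-fold and 3.06-fold. Without the block Arhgap29 (adjusted p = 0.137) and Ccdc158 (adjusted p = 0.0810) were not called by limma. Cd5 was at 10.58 and 11.24 at 2 µM, close to its controls, and then at 5.22 and 8.37, a step of -4.11 ± 0.69. Il7r (-4.42), Cd96 (-4.15) and Sla (-3.83) also fell at the step. Ccl5, by contrast, was already at 14.01 and 12.33 at 2 µM. The median change of the T cell receptor list was -0.16 at 0.5 µM, -0.32 at 2 µM and -2.59 at 10 µM, and 24 of its 27 members were lower at 10 than at 2 µM. The mitosis list had medians of -0.30, -0.88 and -1.01 at the 3 doses, and 12 of its 31 members were lower at 10 than at 2 µM and 4 higher. Over all genes 18.6% were lower and 22.7% higher at this step.

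Some cytokine and ligand genes had their highest level at the lower doses, and so did the medians of some lists. The cytokine and chemokine list had median changes of 0.745, 0.665 and -0.504 at 0.5, 2 and 10 µM. Of its 24 members 15 were lower at 10 than at 2 µM, against 18.6% of all genes. For cytokine receptors and the JAK-STAT pathway the medians were 0.121, 0.33 and -0.845, with 24 of 33 members lower at that step. Ccl9, a chemokine, was at 5.73 and 3.38 without drug, at 10.78 and 6.78 at 0.5 µM, at 9.56 and 7.20 at 2 µM and at 3.88 and 2.65 at 10 µM. Its fall from 2 to 10 µM was at least 17.3-fold, since the mean at 10 µM was under the detection level (adjusted p = 4.36e-05, limma). Lta, which encodes lymphotoxin alpha, was at 9.003 and 7.91, then 11.76 and 9.20, then 12.85 and 10.61, and at 10 µM at 7.95 and 7.96, a step of -3.78 ± 0.45. Cd70, the ligand of CD27, fell at least 4.68-fold at the step, and Ccl3, a macrophage-attracting chemokine, changed by -3.88. At 2 µM Ccl9, Lta, Cd70 and Ccl3 were called higher than the controls, and at 10 µM Ccl3 was called lower than the controls (adjusted p = 0.422 without the block, limma), Ccl9 and Lta were not called, and the means of Cd70 in the controls and at 10 µM were both under the detection level. With the actin covariate the change of Ccl3 at 10 µM was 0.134. Without the block the steps of Ccl3 (adjusted p = 0.142, limma) and Lta (adjusted p = 0.0622, limma) were not called.

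**Figure D4:**
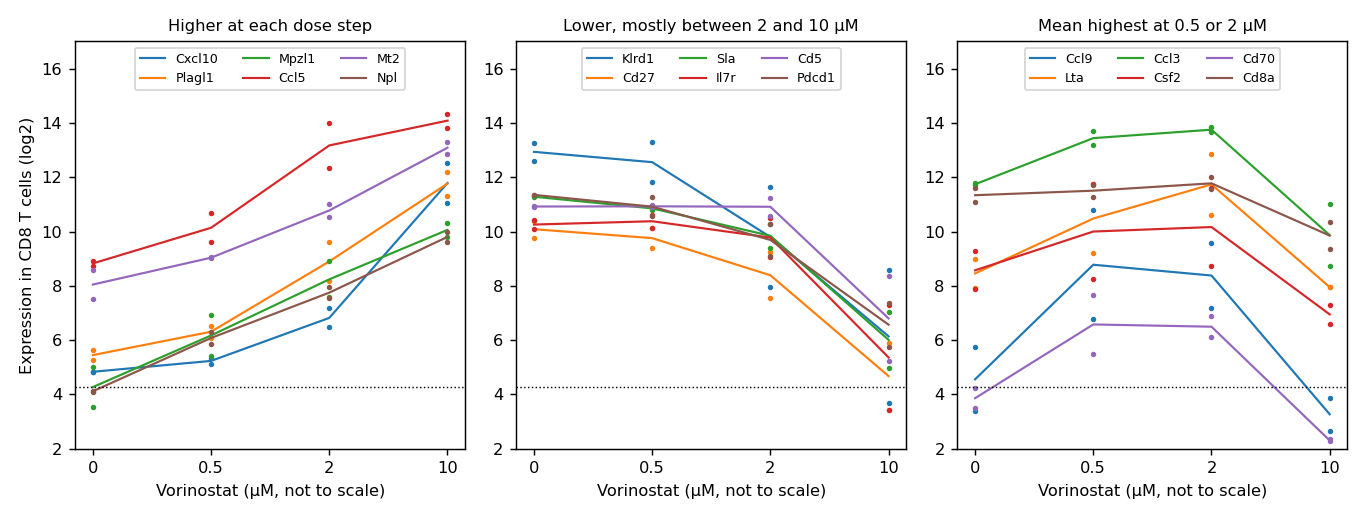
Expression (log2) of 18 genes in CD8 T cells without drug and with vorinostat at 0.5, 2 and 10 µM, with lines through group means, points for the 2 arrays and a dotted line at the detection level of 4.27; doses are evenly spaced and not to scale. The left panel has 6 genes whose means were higher at each dose, the middle panel 6 genes with their largest fall between 2 and 10 µM, and the right panel 6 genes whose mean was highest at 0.5 or 2 µM.

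Romidepsin, a cyclic peptide that inhibits class I deacetylases, was given at up to 30 nM, so the top doses of the drugs can be set side by side but are not equal doses. Between the arrays with vorinostat at 10 µM and those with romidepsin at 30 nM 817 genes differed (8.28%), 229 higher (2.32%) and 588 lower (5.96%) with vorinostat. This split depended on the scaling: it was 586 higher and 611 lower after quantile normalization, and 394 and 424 with equal medians. Without the block no gene was called by limma (402 with an unadjusted p under 0.05), and without the vorinostat array of replicate 1 the count was 136. Cxcl10 was at 10.96 and 7.94 with romidepsin against 12.51 and 11.06 with vorinostat, a difference of 2.33 ± 0.55 (adjusted p = 0.0233, limma). Peg3, an imprinted zinc finger gene, was at 3.89 and 2.27 with romidepsin and at 6.72 and 4.51 with vorinostat, at least 2.54-fold higher. Dzank1 was higher with vorinostat by 2.03. Ckmt1 (1.44), Med9os (1.44), Nr6a1 (1.49), Saxo2 (1.30) and Hoxd8 (1.57) were higher with vorinostat by at least the folds given, from romidepsin means under the detection level. Lta and Ccl9 peaked at lower vorinostat doses and were high with romidepsin at 30 nM, Lta at 12.49 and 10.06 and Ccl9 at 8.27 and 7.26. The differences were -3.33 for Ccl3, -3.32 for Lta, -3.12 for Csf2, a myeloid growth factor, -2.98 for Xcl1 and -2.82 for Cd96. Ccl9, Lxn and Cd70 were under the detection level with vorinostat, at least 11.3-fold, 3.30-fold and 3.03-fold lower.

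CD4 T cells with vorinostat at 10 µM gave a separate comparison with their own controls. The response differed between the cell types in 1054 genes (10.7%), with 529 above 0 (5.36%) and 525 below (5.32%) for CD8 minus CD4, in 57 without the block and in 438 without CD8 control replicate 1. Myo6, an actin motor that moves towards the minus end, moved in opposite directions. It went from 2.77 and 2.52 to 6.05 and 6.95 in CD8 cells and from 11.05 and 11.70 to 7.03 and 8.11 in CD4 cells. That is a rise of at least 4.69-fold in CD8 cells and a change of -3.81 in CD4 cells. The fitted difference of 7.66 ± 0.56 (adjusted p = 1.74e-06, limma) includes a CD8 control mean under the detection level and is no measure of its size. Cxcl10 went from 4.09 and 4.61 to 5.76 and 5.84 in CD4 cells, so its response was 5.50 ± 0.78 larger in CD8 cells. The metallothioneins started higher in CD4 cells, where Mt1 was at 11.89 and 11.66 in the controls against 8.22 and 8.70 in CD8 cells, and with the drug at 13.12 and 13.23 against 13.31 and 12.86.

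Of the 16 largest fitted differences, 14 involved at least 1 group mean under the detection level, and their sizes and order are not measured. Il4, Il5, Il13, Il10 and Il24, cytokines of helper T cells, and the leukotriene receptor Cysltr1 lay at most at 2.53 in the CD8 control and 10 µM arrays. In CD4 cells they fell with the drug, Il4 from 9.59 and 10.16 to 2.71 and 5.55. Klrd1, Klrc1, Cd160 and Klrk1 fell in CD8 cells from the levels given above, while in CD4 cells Klrc1 was at most at 3.36 and Klrk1 at most at 3.78. In CD4 controls Klrd1 was at 2.52 and 5.30 and Cd160 at 2.46 and 5.68, so both were over the detection level in replicate 2, and with the drug Klrd1 was at most at 2.34 and Cd160 at most at 3.86. Ifi209, an interferon-induced gene, went from 8.79 and 10.38 to 3.96 and 6.91 in CD8 cells and was at most at 3.92 in CD4 cells. For Klrc1, Klrk1 and Ifi209 the difference thus compares a fall with a gene under the detection level. Calhm6 changed by -1.52 in CD8 cells (adjusted p = 0.415 without the block, limma) and rose at least 3.94-fold in CD4 cells, where it went from 3.40 and 4.04 to 6.24 and 6.25. The median change of the T cell receptor list was -1.76 in CD4 cells against -2.59 in CD8 cells, and 1 of its 27 members had a response difference that was called. For the IRG and GBP GTPases the medians were 2.07 and 2.12, with none of 9 members called as different.

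**Figure D5:**
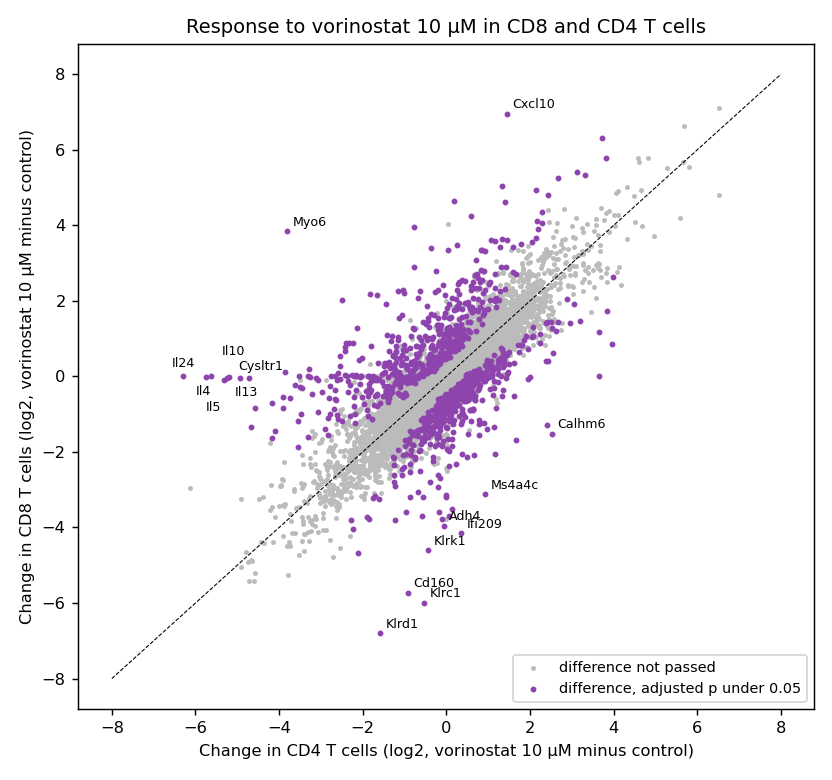
Change with vorinostat at 10 µM (log2) in CD4 T cells on the x axis and in CD8 T cells on the y axis for the 9870 genes tested, with genes whose response difference was called in purple, others in grey and a dashed line of equal change. Myo6 lies alone in the upper left, the helper cytokines lie on the line of no change in CD8 cells at changes of -5.249 to -6.31 in CD4 cells, and Klrd1, Klrc1 and Cd160 lie lowest.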

How the data were processed

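The authors deposited GCRMA values of 45101 Mouse430_2 probe sets for 28 arrays, per the submitters' processing notes, with no version or settings. The deposited values were read as log2, whose base is not given in the sources used here, so a fold change holds only for base 2. Whether the replicate sets were normalized apart is also not given there. The lowest value was 2.2684 in each replicate 1 array and 2.2545 in each replicate 2 array. Between 8445 and 8670 genes lay over the detection level in replicate 1 arrays, and between 9057 and 9320 in replicate 2 arrays. A single gene is named for 34958 probe sets, several for 932 and no gene for 9211 (64 are controls), and 18032 genes matched the RefSeq table.

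A mean for each of 14 groups, with replicate numbers as blocks inside each cell type, was fitted to all 28 arrays (R 4.3.3, limma 3.58.1, lmFit and eBayes, 12 residual degrees of freedom, tested on simulated data). The labels do not state the pairing. In the values every same-numbered pair of CD8 arrays had deviations from its group means that correlated (at least 0.768, median 0.883). So did every pair of CD4 arrays (at least 0.762). The lowest CD8 value, 0.768, was that of the CD8 control with vorinostat at 10 µM, the comparison of this report. With 2 arrays a group these deviations mirror each other. Pairing of the cells, their sex and processing by replicate number cannot be told apart in these correlations. The number of arrays limits the precision.

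Members, gene lists and tests were chosen with earlier results of these data known. Named are, among genes called in the contrast with groups apart and 1 sign in both replicates, the 12 largest rises and falls between detected means, 8 each way with 1 mean under detection as bounds, up to 5 called members of a list (any member of lists under 12), and for the dose step, drug difference and response difference the 8 largest each way. Other genes named, including those not called, were chosen after their values were seen. A bound sets the other group's mean against the detection level, and list medians were also taken with undetected means at that level. Alternatives were no block, CD8 arrays or the 4 arrays alone, quantile normalization, equal medians, 2 filters, the mean of a gene's probe sets, a trended robust prior, an actin covariate and leaving out each array.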

Additional observations from a re-analysis of the deposited data

Results flagged for a closer look

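The response to vorinostat at 10 µM differed between CD8 and CD4 T cells by a test of the difference itself in the 16 genes below, the 8 largest fitted differences each way. In 14 of the 16 at least 1 of the 4 group means lay under the detection level, so the fitted sizes and their order are not measured for these; the exceptions are Cxcl10 and Ms4a4c. The CD8 minus CD4 difference was 7.66 for Myo6, which rose in CD8 cells and fell in CD4 cells in both replicates, and 5.50 for Cxcl10, which was called higher in both cell types. It was 6.31 for Il24, 5.72 for Il4, 5.64 for Il5, 5.24 for Il13, 5.20 for Il10 and 5.19 for Cysltr1, which lay near the floor in the CD8 control and 10 µM arrays. It was -5.45 for Klrc1, -5.20 for Klrd1, -4.82 for Cd160, -4.50 for Ifi209, -4.16 for Klrk1, -4.05 for Calhm6, -4.04 for Ms4a4c and -3.89 for Adh4. The size differed between the replicate numbers: it was -8.70 and -1.71 in replicates 1 and 2 for Klrd1, -7.07 and -2.56 for Cd160, and 7.30 and 8.03 for Myo6. Without the block the limma adjusted p was 0.00567 for Myo6 and 0.0115 for Cxcl10, and 1.0 for Klrd1, Cd160 and Klrk1.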

How the results depend on the processing

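With no replicate block the counts of genes called were 2029 for the comparison with the controls at 10 µM, 326 at 2 µM, 0 at 0.5 µM (201 with an unadjusted p under 0.05), 482 for the step from 2 to 10 µM, 0 for vorinostat against romidepsin (402 unadjusted) and 57 for CD8 against CD4 responses, and 59 of 234 named genes lost their call. The 4 arrays alone, with the block, gave 3495 genes (24 named genes lost), and a change over 1 log2 unit as a further condition 2830. CD8 arrays alone gave 47 at 0.5 µM and 369 for the drug difference, and no filter on low values gave 440 for the latter. The actin covariate rose with the vorinostat dose in CD8 cells, so it cannot be told apart from the drug. With it the counts were 3862 at 10 µM, 465 at 0.5 µM, 2696 for the step, 321 for the drugs and 1650 for the cell types. In that fit 47 named genes lost their call. There the medians of the cytoskeleton (0.027), Polycomb (0.109), cytokine and chemokine (0.024), interferon response (0.155) and cell cycle inhibitor (0.292) lists turned sign, as did Fasl (0.079), Il3 (0.064), Cxcr6 (0.069), Cd68 (-0.032), Ccdc158 (-0.217) and Ccl3 (0.134), and also Cd4 (2.476), Il4 (2.205), Il13 (2.574), Il10 (2.755) and Cysltr1 (2.029), which lie near the floor in the CD8 arrays compared; the cause was not tested. With equal medians the medians of the cell cycle inhibitor (0.01), p53 (0.012), CD4 marker (0.021) and myeloid marker (0.005) lists turned sign. With 1 array left out the median ranged from -0.316 to 0.019 for the acetyltransferase list, for the interferon response list from -0.489 to 0.053 (the highest without control replicate 1), for the activation factor list from -0.336 to 0.095 and for the cell cycle inhibitor list from -0.215 to 0.142 (the highest without the 10 µM array of replicate 1), and for the myeloid markers from -0.432 to 0.266 (0.189 without the 10 µM array of replicate 1). Leaving out 1 array gave 5031 to 5652 genes at 10 µM, 1715 to 3702 at 2 µM, 7 to 132 at 0.5 µM, 2634 to 4022 for the step, 136 to 777 for the drugs and 438 to 893 for the cell types, the lowest without control replicate 1 or, for the step and the drugs, without the 10 µM array of replicate 1. At 2 µM 44.4% of calls were higher, against 55.1% with equal medians, and at 0.5 µM 61.6%, against 72.0% after quantile normalization and 80.6% with equal medians. Other settings turned that majority: 40.1% were higher with the mean of a gene's probe sets, 43.2% without control replicate 2 and 46.2% with the actin covariate.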
